A study of Mus musculus with 8 samples.

Results

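The core circadian clock genes examined here are Arntl (also called Bmal1), Clock, Npas2, Per1, Per2, Per3, Cry1, Cry2, Nr1d1 and Nr1d2. These 10 of the 54309 genes in the count table were chosen by name, as the textbook parts of the clock loop, and were found by their Ensembl gene identifiers through the authors' deposited table. All 10 were found, and 9 passed the filter on low counts, which Npas2 did not. The livers came from male C57BL/6J mice (C57BL/6 in the sample labels) that ate a fructose, palmitate and cholesterol (FPC) diet for 16 weeks to induce the steatohepatitis called NASH. All mice of both groups carried the disease model, and there was no group on a normal diet. Intraperitoneal injections of IgG, the control antibody, or of anti-CD47 at 200 µg per mouse were given between weeks 8 and 16. The series describes 7 to 8 mice per group, of which 4 liver libraries per treatment were measured, named IgG 1 to 4 and antiCD47 1 to 4. The libraries held 43691472 to 55477484 counts. The sources used here give neither the age of the mice nor the time of day at which the livers were taken.

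Nearly every cell keeps time with a loop of transcription factors. BMAL1, the product of Arntl, pairs with CLOCK or its relative NPAS2 and switches on the Per and Cry genes, whose products return to the nucleus and block that pair. The same pair switches on Nr1d1 and Nr1d2, which encode the nuclear receptors REV-ERBα and REV-ERBβ. These receptors repress Arntl, Clock, Npas2 and Cry1, and the ROR receptors compete with them for the same DNA element. In mouse liver the mRNAs of Arntl, Clock and Npas2 are known to peak around dawn, that of Nr1d1 in the day, those of Per3, Per1, Per2 and Cry2 from late day to early night, and that of Cry1 later in the night. The hepatic clock also follows feeding time, glucocorticoids and body temperature.

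The clock genes split by treatment into a group that rose, 1 gene that fell and a group that did not pass the test. In antiCD47 livers Arntl rose 1.80-fold, Cry1 rose 1.60-fold and Clock rose 1.37-fold. Per3 fell to 0.655 of its IgG level. Per1, Per2, Cry2, Nr1d1 and Nr1d2 did not pass. The count was thus 3 higher and 1 lower of 9 tested members, beside a background of 10.8% of 15472 genes, 5.44% higher and 5.4% lower. The threshold was a Benjamini-Hochberg adjusted p of 0.05 in the two-sided quasi-likelihood test of edgeR. Of all calls 50.2% were higher, against 12.0% with scaling by library totals and 39.6% with upper quartile scaling. The median log2 fold change was 0.08 over the 9 members and -0.01 over all genes tested. In the same 4 members the 4 libraries of one treatment did not overlap those of the other, against 19.6% of all genes tested (9.51% higher and 10.1% lower). In whole liver, fewer cells of a type and less RNA per cell cannot be told apart.

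**Figure D1:**
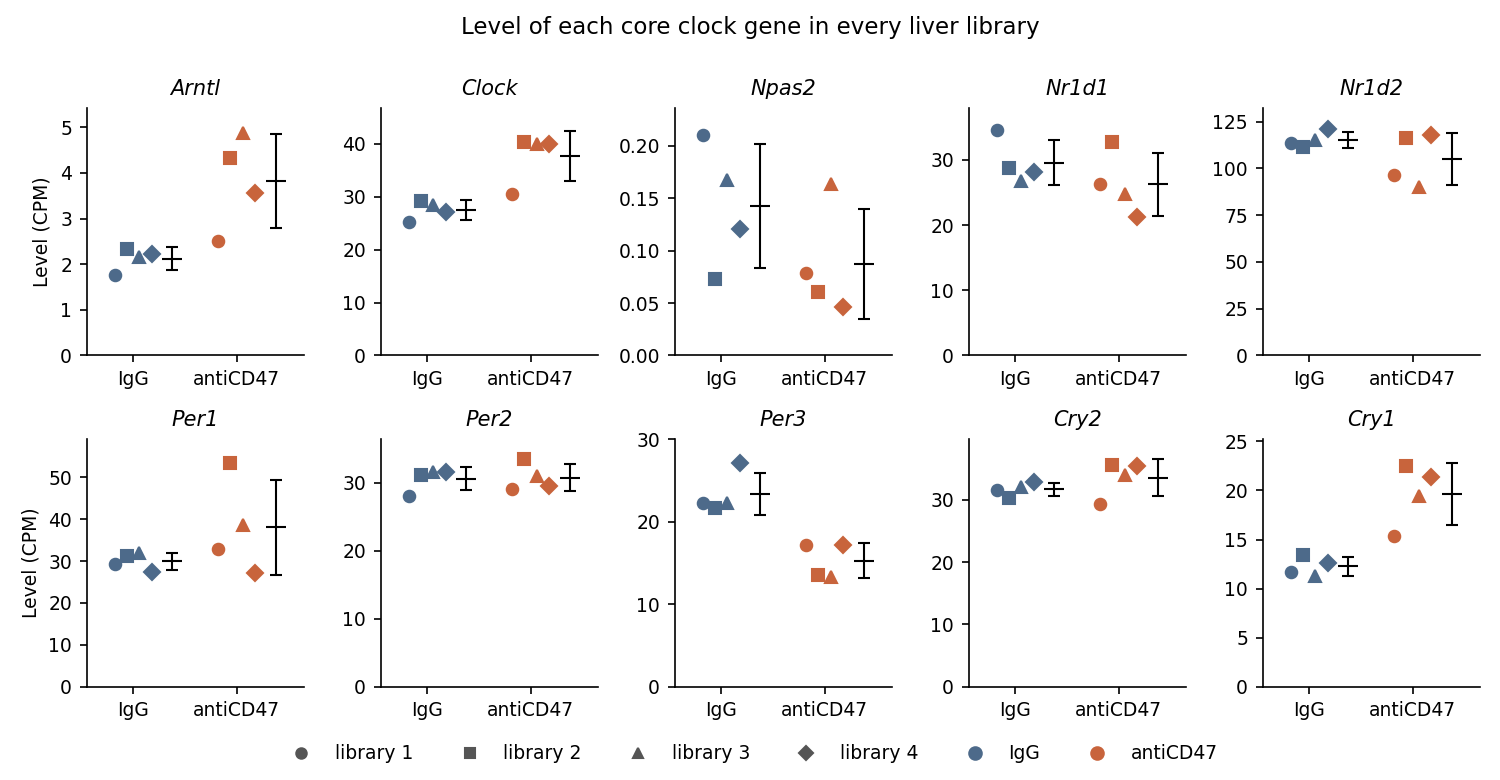
Level of each clock gene in every library, in CPM (the count divided by the TMM-scaled library size, on the usual CPM scale, linear axis from 0), with the mean and SD of the 4 libraries beside the points and the marker shape giving the library number. Arntl, Clock and Cry1 sat higher in all 4 antiCD47 libraries than in any IgG library and Per3 sat lower, while the other 6 overlapped.

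Arntl encodes BMAL1, the activator without which the loop does not run. Its level was 1.77, 2.33, 2.16 and 2.23 CPM in IgG 1 to 4 and 2.50, 4.33, 4.87 and 3.57 CPM in antiCD47 1 to 4 (CPM after TMM scaling of libraries). Every antiCD47 library lay above every IgG library, and antiCD47 1 lay only just above the highest of them. The mean went from 2.12 ± 0.25 to 3.82 ± 1.03 CPM (SD, n = 4 each), and edgeR gave a log2 fold change of 0.85 with an SE of 0.21 (adjusted p = 0.0348). These levels rest on 84 to 238 counts per library, the fewest among the tested members. A short annotated antisense gene overlaps 33 bases of the exons of Arntl, and whether the counting used strand is not stated in the sources at hand.

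Clock encodes the partner of BMAL1. It was at 25.2, 29.3, 28.5 and 27.1 CPM in IgG 1 to 4 and at 30.6, 40.4, 40.0 and 39.9 CPM in antiCD47 1 to 4. Of the antiCD47 libraries 3 stood close together near 40 CPM, and antiCD47 1 stood apart from them, next to the IgG range. The log2 fold change was 0.46 ± 0.10 (SE; edgeR adjusted p = 0.0274).

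Npas2, which can stand in for Clock, was barely detected. It had 10, 4, 9 and 7 counts in IgG 1 to 4 and 4, 3, 8 and 2 counts in antiCD47 1 to 4. Its sums were 30 counts in IgG and 17 counts in antiCD47, and at this depth it was not tested.

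The REV-ERB genes, repressors of Arntl, Clock and Cry1, overlapped between treatments. Nr1d1 was at 34.6, 28.8, 26.8 and 28.2 CPM in IgG 1 to 4 and at 26.3, 32.8, 24.8 and 21.2 CPM in antiCD47 1 to 4. AntiCD47 4 was the lowest and IgG 1 the highest of all 8. Its log2 fold change was -0.17 ± 0.13 (SE; edgeR adjusted p = 0.393). Nr1d1 shares 263 bases of exon with Thra, a thyroid hormone receptor gene on the opposite strand. Without strand, reads within those shared bases cannot be told apart.

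Nr1d2 ranged from 111 to 121 CPM in IgG and from 90.2 to 118 CPM in antiCD47. In antiCD47 1 and 3 it lay below every IgG library, and in antiCD47 2 and 4 within the IgG range. The log2 fold change was -0.13 ± 0.09 (SE; edgeR adjusted p = 0.34). Scaled by library totals alone, Nr1d1 passed at -0.36 (edgeR adjusted p = 0.0437) and Nr1d2 was at -0.32 (edgeR adjusted p = 0.0529). That scaling moved the median of all genes to -0.19.

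Of the Per and Cry genes, Per3 and Cry1 passed. Per3, the least essential of the Per genes for rhythm in the mouse, was at 22.3, 21.7, 22.3 and 27.1 CPM in IgG 1 to 4 and at 17.1, 13.6, 13.2 and 17.2 CPM in antiCD47 1 to 4. All 4 antiCD47 libraries lay below the lowest IgG library, with antiCD47 2 and 3 the lowest. Its log2 fold change was -0.61 ± 0.11 (SE; edgeR adjusted p = 0.0202).

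Per2, a main brake on the activator pair, stayed between 28.1 and 31.7 CPM in IgG and between 29.0 and 33.5 CPM in antiCD47. Its log2 fold change was 0.01 ± 0.07 (SE; edgeR adjusted p = 0.957), the smallest in size and in error among the members tested, and -0.18 with scaling by library totals. Its sign turned in 4 of 18 alternative analyses.

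Per1, which also answers directly to glucocorticoids, was at 29.3, 31.3, 31.9 and 27.3 CPM in IgG 1 to 4 and at 32.8, 53.5, 38.6 and 27.2 CPM in antiCD47 1 to 4. AntiCD47 2 was far above the rest, and antiCD47 4 was level with the lowest IgG library. The log2 fold change was 0.35 ± 0.18 (SE; edgeR adjusted p = 0.204), and 0.14 without antiCD47 2.

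Cry1, the stronger repressor of the CRY pair, was at 11.7, 13.4, 11.2 and 12.6 CPM in IgG 1 to 4 and at 15.4, 22.5, 19.4 and 21.4 CPM in antiCD47 1 to 4. AntiCD47 1 again lay nearest to the IgG libraries and the other 3 were well above them. The log2 fold change was 0.68 ± 0.12 (SE; edgeR adjusted p = 0.0176), the smallest p among the clock genes. Cry2 ranged from 30.3 to 32.8 CPM in IgG and from 29.3 to 35.6 CPM in antiCD47. Its log2 fold change was 0.08 ± 0.08 (SE; edgeR adjusted p = 0.474), and -0.11 with scaling by library totals. An annotated transcript on the opposite strand overlaps 295 bases of its exons.

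The promoters of Per3 and Cry1, the 2 Per and Cry genes past the threshold, hold different clock elements and are shown for that reason. They are the 250 bases before the start site from RefSeq on mouse build GRCm38.p6, on the minus strand, at chr4:151044666-151044915 for Per3 and chr10:85185055-85185304 for Cry1. Capitals mark TTATGTAA, a D-box, the site of the PAR bZIP factors DBP, TEF and HLF, and CACGTG, the E-box of the BMAL1 and CLOCK pair. For Arntl, 30 bases at chr7:113207530-113207559 on the plus strand, just after a start site, are shown with AGGTCA, the half-site of ROR and REV-ERB receptors, in capitals.
Per3: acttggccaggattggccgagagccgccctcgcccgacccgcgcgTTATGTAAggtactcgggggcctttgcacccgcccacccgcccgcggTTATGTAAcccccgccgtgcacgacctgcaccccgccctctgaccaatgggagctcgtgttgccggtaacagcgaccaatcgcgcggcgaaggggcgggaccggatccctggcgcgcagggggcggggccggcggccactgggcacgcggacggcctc
Cry1: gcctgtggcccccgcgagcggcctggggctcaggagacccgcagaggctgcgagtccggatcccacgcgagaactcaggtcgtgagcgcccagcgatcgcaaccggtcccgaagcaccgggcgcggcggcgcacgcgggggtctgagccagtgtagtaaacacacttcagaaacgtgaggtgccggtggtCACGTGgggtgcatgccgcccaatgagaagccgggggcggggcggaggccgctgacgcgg
Arntl: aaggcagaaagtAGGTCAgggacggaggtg
The Per3 D-boxes begin 205 and 158 bases before the start site, and the Cry1 E-box begins 60 bases before it. Both strands were searched for the E-box CACGTG, the half-site AGGTCA and the D-box, spelled TTATGTAA or else as TTACGTAA, in windows from 250 bases before to 50 after each start site. A D-box of either spelling was in 1.06% of all 32851 windows, an E-box in 7.15% and a receptor half-site in 16.3%. Of the 9 members with a window, Per3 alone held a D-box, Cry1 and Per1 held an E-box, and Arntl, Clock, Nr1d2 and Per1 held a half-site in at least 1 of their windows. Per2 was the member without a window. Also searched were 10 genes named below, among them Dbp, Tef, Hlf, Usp2 and Upp2. None of these 10 held a D-box, while Bhlhe41, Ciart and Tef held an E-box and Nfil3 and Upp2 a half-site. The 9 members had 13 windows, so these counts of genes are not directly comparable with the shares of windows. A match describes the letters only, and elements outside these windows were not searched.

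Set out by known phase, the dawn genes Arntl and Clock rose, and so did Cry1, the latest of the night genes. The day genes Nr1d1 and Nr1d2 had negative values that did not pass. Of the late day to early night genes, Per3 fell, while Per1, Per2 and Cry2 did not pass. Genes of like phase therefore did not all give the same call. Whether Per3 differs from Per1 and Per2, or Cry1 from Cry2, in its response was not tested across libraries, and the ratios within each library are given as a description.

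The log2 ratio of Cry1 to Cry2 was -1.43, -1.17, -1.51 and -1.38 in IgG 1 to 4 and -0.93, -0.66, -0.81 and -0.73 in antiCD47 1 to 4. The groups did not overlap. The log2 ratio of Arntl, a dawn gene, to Nr1d1, a day gene, was -4.26, -3.61, -3.61 and -3.64 in IgG 1 to 4 and -3.38, -2.91, -2.34 and -2.56 in antiCD47 1 to 4. These groups did not overlap either, with antiCD47 1 nearest to IgG. Arntl to Per2 moved from -3.83 ± 0.10 to -3.04 ± 0.36 on the log2 scale (SD, n = 4 each), again without overlap.

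The log2 ratio of Cry1 to Per3, chosen after the values of both had been seen, had the opposite sign in 3 antiCD47 libraries. It was -0.93, -0.69, -0.98 and -1.10 in IgG 1 to 4, and -0.16, 0.72, 0.55 and 0.31 in antiCD47 1 to 4. Per1 to Per2 (-0.03 ± 0.12 against 0.26 ± 0.33) and Nr1d1 to Nr1d2 (-1.97 ± 0.18 against -2.01 ± 0.31) overlapped. Clock to Npas2 also overlapped and rests on the few Npas2 counts.

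**Figure D2:**
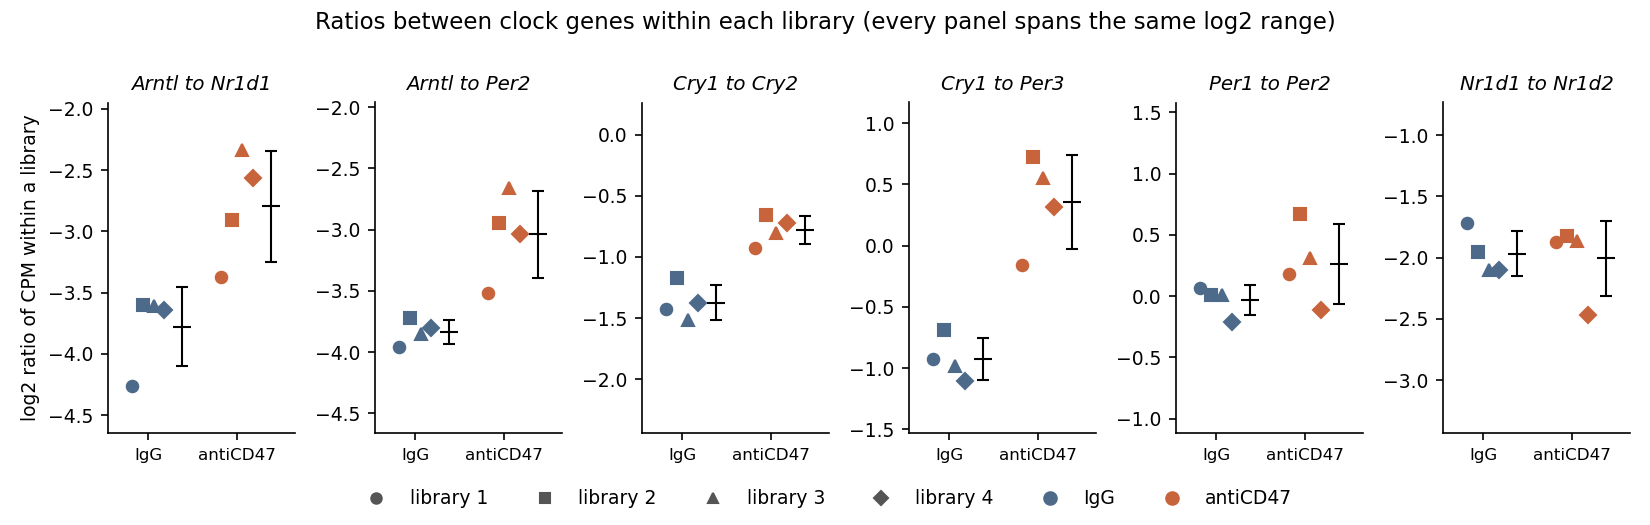
log2 ratio of CPM between pairs of clock genes within each library (prior count 2), with the mean and SD of 4 libraries beside the points. Arntl to Nr1d1, Arntl to Per2, Cry1 to Cry2 and Cry1 to Per3 were higher in every antiCD47 library than in any IgG library, and the last 2 pairs overlapped.

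Compared per length, as CPM per kilobase of annotated exon, the clock genes differed widely in level. In IgG the order was Nr1d2 (24.7 ± 0.89), Nr1d1 (10.9 ± 1.26), Cry2 (7.30 ± 0.25), Per1 (5.33 ± 0.37), Per2 (5.25 ± 0.30), Cry1 (4.05 ± 0.32), Per3 (3.89 ± 0.42), Clock (2.77 ± 0.18), Arntl (0.686 ± 0.080) and Npas2 (0.034 ± 0.014), each as mean ± SD of 4 libraries. Per1 and Per2 overlapped in range, as did Cry1 and Per3, and the other neighbours were apart. In antiCD47 Cry1 (6.50 ± 1.04) stood between Per1 (6.76 ± 2.01) and Per2 (5.28 ± 0.35). Clock (3.80 ± 0.48) stood above Per3 (2.55 ± 0.36), with separate ranges. From Nr1d1 down to Per2 each neighbour overlapped the next in antiCD47. Arntl, at 1.23 ± 0.33, remained next to last.

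The partners of the loop were taken from a list of 10 genes, of which 3 fell, none rose and 7 did not pass. Over all genes tested 5.44% were called higher and 5.4% lower, the share to set beside every list below as well. The 3 that fell are the whole PAR bZIP family, factors that bind the D-box shown for Per3. Any link between their levels and that of Per3 was not tested. Dbp, a direct target of the BMAL1 and CLOCK pair, was at 99.1, 77.0, 86.9 and 89.9 CPM in IgG 1 to 4 and at 61.7, 43.9, 33.2 and 45.2 CPM in antiCD47 1 to 4. All antiCD47 libraries lay below all IgG libraries, antiCD47 1 least so. Its log2 fold change was -0.94 ± 0.16 (SE; edgeR adjusted p = 0.0174). Hlf was at -0.59 ± 0.11 (edgeR adjusted p = 0.0197) and Tef at -0.31 ± 0.07 (edgeR adjusted p = 0.0268), both without overlap.

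Nfil3, which represses through the D-box, was at 12.2 to 12.5 CPM in 3 IgG libraries, 26.0 CPM in IgG 2, and 21.2 to 38.5 CPM in antiCD47. It did not pass (log2 0.94 ± 0.28; edgeR adjusted p = 0.0583), but in the authors' deposited table its log2 fold change was 0.77 with an adjusted p of 0.008. The ROR receptor gene Rora (-0.04 ± 0.08), the bHLH repressor genes Bhlhe40 (0.09 ± 0.15) and Bhlhe41 (0.00 ± 0.17), and Ciart (-0.38 ± 0.24), a repressor of the activator pair, did not pass (log2 fold change ± SE; edgeR adjusted p from 0.306 to 0.996). Rorb, a tissue-restricted ROR gene, was at 0 counts in 1 library of each treatment and did not pass (edgeR adjusted p = 0.272). The median over the 10 was -0.02.

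**Figure D3:**
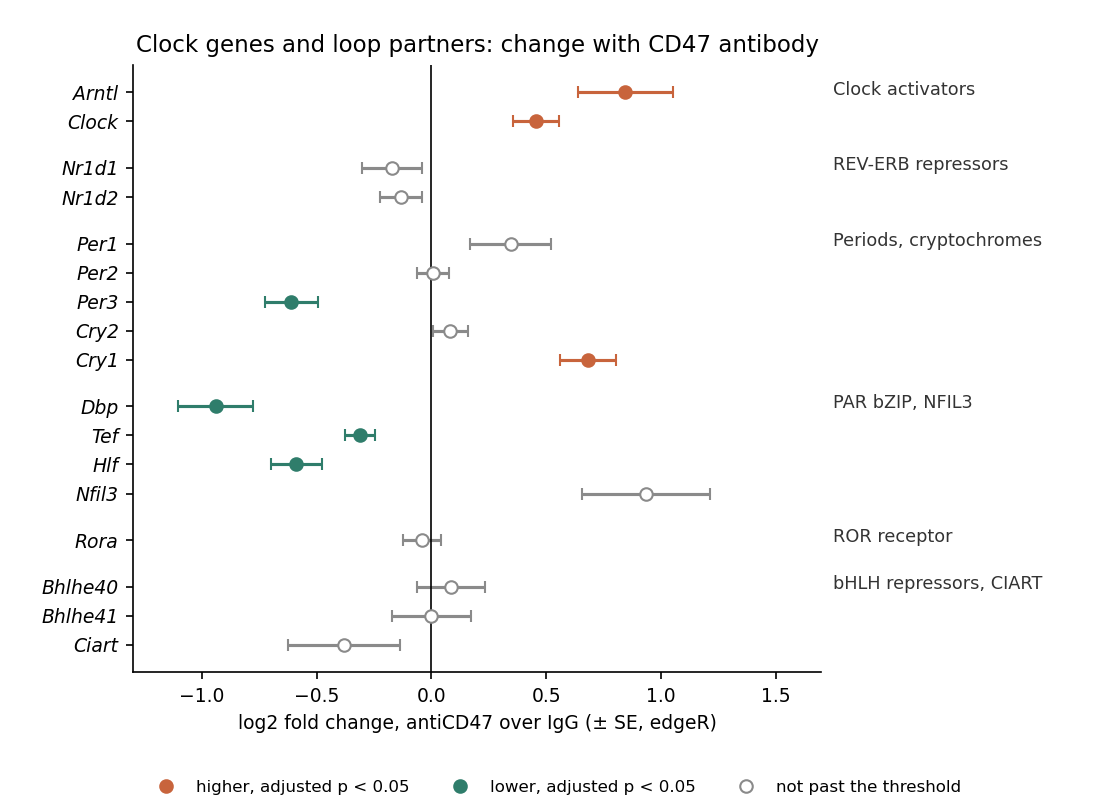
log2 fold change of antiCD47 over IgG with its SE (edgeR, 4 libraries per treatment) for the clock genes tested and the loop partners named in the text, ordered by role. Arntl (0.85), Clock (0.46) and Cry1 (0.68) lay to the right past the threshold, and Per3 (-0.61), Dbp (-0.94), Hlf (-0.59) and Tef (-0.31) to the left. Rorb, which has a wide error, and Npas2 are not drawn.

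Of 21 genes whose products modify or assist the clock proteins, 2 rose, 2 fell and 17 did not pass, with a median of 0.03. The share called over all genes tested was 5.44% higher and 5.4% lower. Usp2, a rhythmic deubiquitinase gene, fell from 67.8 ± 3.60 to 45.8 ± 7.57 CPM (log2 -0.57 ± 0.11; edgeR adjusted p = 0.0209). Ncor1, a corepressor used by REV-ERB (0.33 ± 0.09; edgeR adjusted p = 0.0458), and Wdr5, a chromatin cofactor (0.25 ± 0.07; edgeR adjusted p = 0.0496), were higher. Of 18 alternative analyses, Ncor1 did not pass in 9 and Wdr5 in 13. The casein kinase genes that set the pace of PER turnover, Csnk1d (0.03 ± 0.06; edgeR adjusted p = 0.757) and Csnk1e (-0.28 ± 0.12; edgeR adjusted p = 0.127), did not pass.

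Of 14 liver genes known to follow the clock, 1 fell, none rose and 13 did not pass, with a median of 0.04. Beside this, 10.8% of all genes tested were called. Upp2, a uridine phosphorylase gene with a strong daily rhythm, was at 268, 198, 255 and 234 CPM in IgG 1 to 4 and at 192, 138, 135 and 136 CPM in antiCD47 1 to 4 (log2 -0.67 ± 0.13; edgeR adjusted p = 0.0241). Again antiCD47 1 was the library nearest to IgG.

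Genes that follow the cues of the hepatic clock were read beside it. The counts below stand beside the 10.8% of all genes tested that were called. None of 7 glucocorticoid targets passed by edgeR, with 1 higher at an unadjusted p under 0.05, and the 2 with the smallest p were Fkbp5 (log2 0.34 ± 0.11; edgeR adjusted p = 0.0801) and Tsc22d3 (-0.43 ± 0.19; edgeR adjusted p = 0.162). Of these 2, Fkbp5 passed by DESeq2 (adjusted p = 0.0388) and had an adjusted p of 0.0162 in the authors' deposited table. Of 10 fasting genes 1 passed, Ppargc1a, the PGC-1α coactivator gene that also assists ROR at Arntl, which fell (log2 -0.99 ± 0.17; edgeR adjusted p = 0.0176). Cyp4a14 did not pass (0.66 ± 0.22; edgeR adjusted p = 0.0792), but in the authors' deposited table it had log2 0.51 and an adjusted p of 0.0257. Of 8 genes induced by feeding 1 passed, the lipogenic factor gene Srebf1, which fell (-0.34 ± 0.08; edgeR adjusted p = 0.0294). Of 8 genes that answer to temperature, the heat shock gene Hsp90aa1 rose (0.81 ± 0.16; edgeR adjusted p = 0.0228) and the cold-inducible RNA-binding gene Cirbp fell (-0.82 ± 0.18; edgeR adjusted p = 0.028), while 6 did not pass. Among these 6, Hsph1 (0.78 ± 0.22; edgeR adjusted p = 0.0504) did not overlap between treatments. The heat shock genes Hspa1a (0.01 ± 0.30), Hspa1b (0.05 ± 0.34), Dnajb1 (0.02 ± 0.12) and Hspa8 (0.25 ± 0.14) overlapped (edgeR adjusted p from 0.233 to 0.989). In the authors' deposited table Hsph1 had log2 0.65 (adjusted p = 0.00508) and Rbm3 log2 -0.31 (adjusted p = 0.0435).

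Inflammatory genes differed between the same libraries. All 10 acute phase genes on the list rose, among them Saa2 (3.35 ± 0.63), Orm2 (1.83 ± 0.34), Serpina3n (1.84 ± 0.35) and Lbp (1.76 ± 0.30), with edgeR adjusted p from 0.017 to 0.0205 for these 4. Taken as the mean of log2 CPM minus the IgG mean, these 10 genes stood at -0.13, 0.82, -0.23 and -0.46 in IgG 1 to 4 and at 1.32, 2.79, 2.56 and 1.62 in antiCD47 1 to 4. AntiCD47 1, the library with the smallest difference in Arntl, Clock and Cry1, was also the lowest of the 4 here. Dbp too differed least in antiCD47 1 (-0.51). Hlf differed least in antiCD47 4 (-0.37 against -0.46 in antiCD47 1) and Tef in antiCD47 2 (-0.22 against -0.28 in antiCD47 1). Per3 was level in antiCD47 4 (-0.435) and antiCD47 1 (-0.439). AntiCD47 4, the next lowest in acute phase genes, was not near IgG in Clock (0.54) or Cry1 (0.81). In the acute phase mean IgG 2 stood above the other IgG libraries. In IgG 2 the levels of Arntl, Clock, Cry1, Per3, Dbp, Hlf and Tef were nearer to another IgG library than to any antiCD47 library. So were those of Usp2, Ncor1, Ppargc1a, Srebf1 and Hsp90aa1. Where the groups do not overlap, the nearest library is likely to be an IgG one, so that criterion can miss a shift. Of the IgG libraries, IgG 2 lay closest to antiCD47 in Arntl (2.33 CPM), Clock (29.3 CPM), Cry1 (13.4 CPM) and Per3 (21.7 CPM). It also lay closest in Dbp, Tef, Usp2, Ncor1, Ppargc1a and Hsp90aa1, but not in Hlf or Srebf1. The levels of Nfil3, Upp2, Cirbp, Wdr5, Fkbp5 and Tsc22d3 in IgG 2 were nearer to an antiCD47 library. The part of the acute phase genes in the clock gene differences was not tested.

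**Figure D4:**
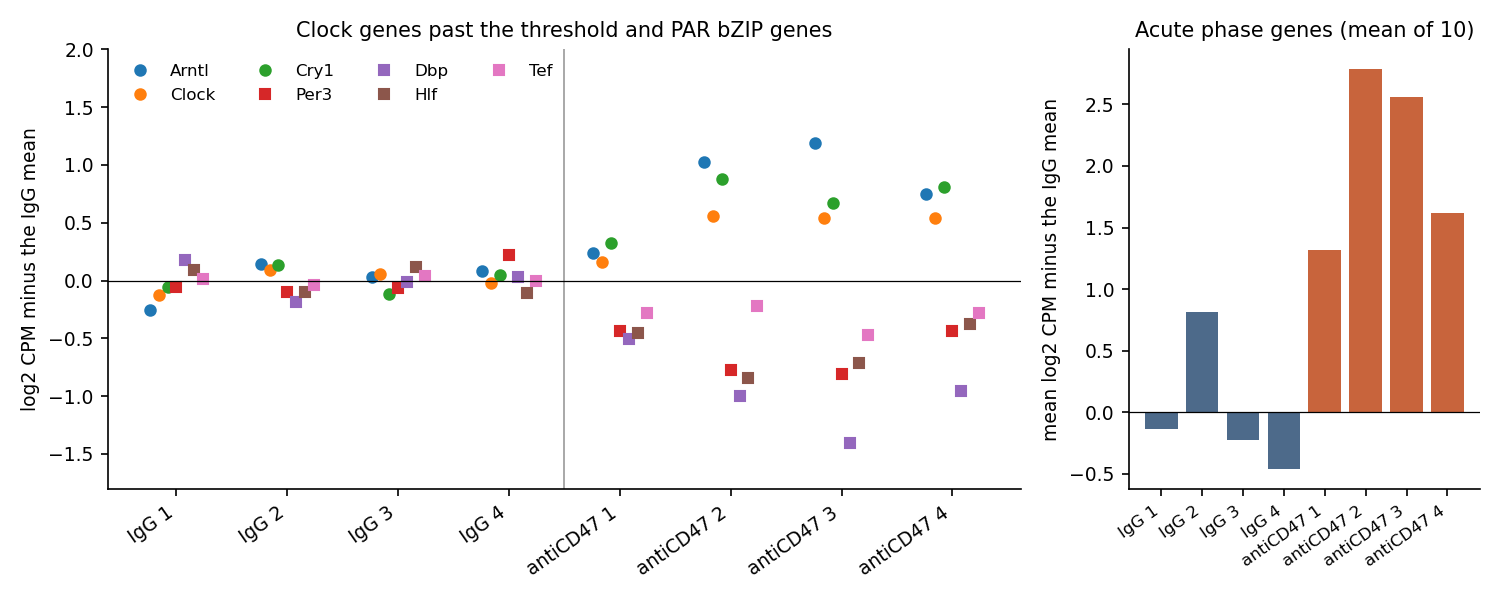
Left, the difference from the mean of IgG in log2 CPM (prior count 2) in each library for the 4 clock genes past the threshold and the 3 PAR bZIP genes, where the vertical line separates IgG from antiCD47 and the order of libraries carries no meaning. Right, bars from 0 give the mean of the same quantity over 10 acute phase genes, highest in antiCD47 2 (2.79) and 3 (2.56) and raised in IgG 2 (0.82).

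The libraries had the markers of liver, with Alb at 40999 to 52152 CPM in all 8. The summed level of 6 hepatocyte markers, of which 1 rose and 5 did not pass, was 56883 to 62399 CPM in IgG and 59445 to 70059 CPM in antiCD47. Markers of other cells moved with the treatment: 5 of 6 Kupffer cell markers (summed 159 to 299 CPM in IgG, 308 to 572 CPM in antiCD47), 5 of 5 neutrophil markers (2.68 to 5.49 against 9.79 to 23.5 CPM) and 5 of 5 erythroid markers (425 to 641 against 1168 to 2092 CPM) were higher. In turn 4 of 6 fibroblast and stellate markers (764 to 1099 against 447 to 653 CPM) and 4 of 5 bile duct markers (391 to 536 against 93.1 to 324 CPM) were lower, and none of 12 endothelial and lymphocyte markers passed (5 endothelial, 4 T and NK cell, 3 B cell; edgeR, with 2 higher at an unadjusted p under 0.05). No marker was at 0 counts in any library. The part of these cells in the clock gene differences was not tested.

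In patterns across libraries, Clock stood closest to Arntl among the clock genes. Each gene was taken as its deviation from its treatment mean, so that the treatment difference was left out, and the likeness over the 8 libraries was a Pearson r of 0.900, a description with no test. Of all genes tested, the 5 most like Arntl (r from 0.959 to 0.985) included the hexokinase gene Hk2, the myeloid factor gene Irf8 and Fam120b. The 5 most like Nr1d1 (r from 0.960 to 0.978) were Zmym1, Nup88, Slc7a2, Sec61g and Hspa1a. None of these named genes is a core clock gene. The largest of so many correlations over 8 libraries can be this high without any link between the genes.

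The calls depended on which libraries entered. Without IgG 1, IgG 3, IgG 4 or antiCD47 3, none of Arntl, Clock, Cry1 and Per3 passed (edgeR adjusted p from 0.0553 to 0.103), and Dbp, Hlf, Tef, Usp2 and Upp2 were lost in the same 4 fits (edgeR adjusted p from 0.0549 to 0.0804). So were the cue genes Ppargc1a, Hsp90aa1, Cirbp and Srebf1 (edgeR adjusted p from 0.0511 to 0.0970) and the acute phase genes Lbp, Orm2, Saa2 and Serpina3n (edgeR adjusted p from 0.0554 to 0.0697). Without antiCD47 2, Arntl (edgeR adjusted p = 0.0754) and Clock (edgeR adjusted p = 0.0527) were lost, as was Srebf1 (edgeR adjusted p = 0.0586), and Cry1 and Per3 were kept. In these fits far fewer genes passed in all: 174, 92, 2 and 21 without IgG 1, IgG 3, IgG 4 and antiCD47 3, and 756 without antiCD47 2, against 1678. The log2 fold change ran from 0.71 to 1.00 for Arntl, 0.42 to 0.55 for Clock, 0.61 to 0.79 for Cry1 and -0.67 to -0.53 for Per3 with 1 library left out. Without antiCD47 1, Arntl was at 1.00 (edgeR adjusted p = 0.00665) and Clock at 0.55 (edgeR adjusted p = 0.00425). With scaling by library totals Clock did not pass (0.27; edgeR adjusted p = 0.0779), while Arntl, Cry1 and Per3 did. In the authors' deposited table the same 4 clock genes had the smallest adjusted p of the 10, at 0.00436 for Arntl, 0.0044 for Clock, 0.00103 for Cry1 and 6.71e-06 for Per3, with log2 fold changes of the same sign. None of the other 6 was below 0.05 there.

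**Figure D5:**
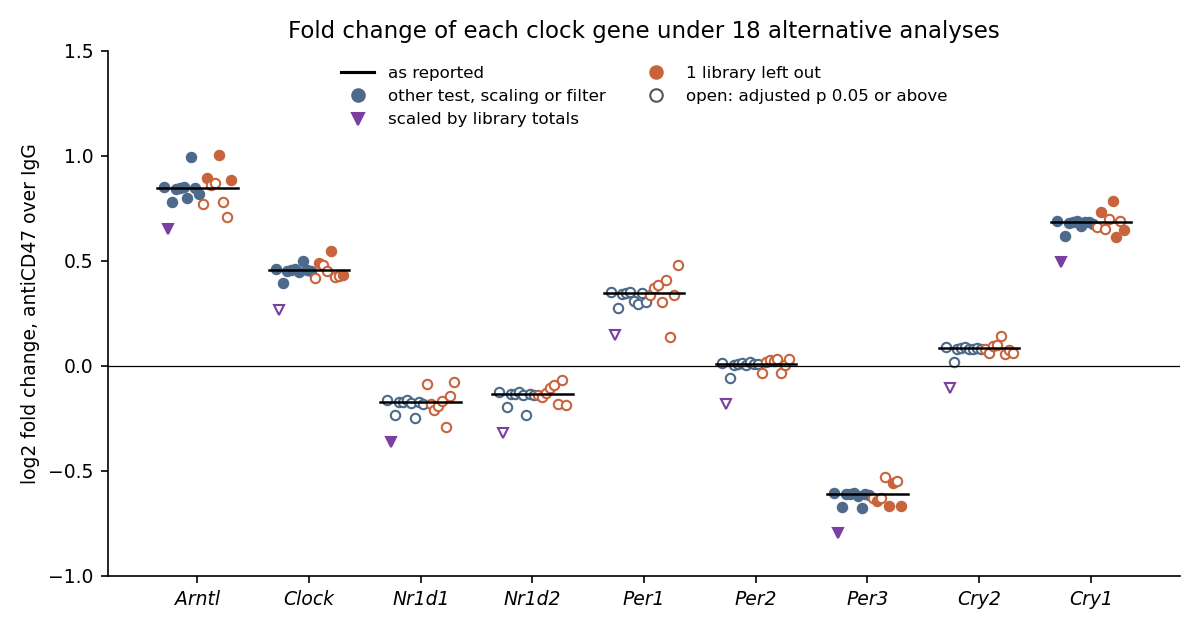
log2 fold change of antiCD47 over IgG for the 9 clock genes tested, as reported (black line) and under 18 alternative analyses (points; open points did not pass an adjusted p of 0.05). Arntl, Clock, Cry1 and Per3 kept their direction in all 18, while Per2 crossed 0 in 4 of them and Cry2 with scaling by library totals.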

How the data were processed

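RNA was extracted with the RNeasy Mini Kit and polyadenylated RNA was made into Illumina TruSeq libraries, per the labels. The authors' deposited counts are whole numbers per Ensembl gene, not normalized. The submitters' processing notes name Salmon 1.3.0, DESeq2 1.32.0 and GRCm39 without their roles. Whether the counts are rounded estimates was not stated. The authors' deposited table gives a mean normalized count (a signal over libraries), a log2 fold change, its error and a rank (each used as a score), and raw and adjusted p-values, per the file headers. Which group its log2 values are relative to was not stated. Whether these log2 values were reduced in size by a shrinkage step was not stated either. Rorb was at 0.02 there against 1.76 by edgeR, so their sizes are not directly comparable with the edgeR values. From the authors' deposited table, gene names, log2 values and adjusted p-values were used. It gave symbols for 14362 genes, and the reference gave 37139 more.

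Library totals were 43691472 to 55477484 counts. Any 2 libraries of a treatment differed by far more than sampling noise (chi-square over its degrees of freedom at least 25.963), so all 8 were kept. The labels do not link a library to a mouse, so the spread behind the p-values may be technical. Low counts were filtered with filterByExpr by group, libraries were scaled with TMM, and treatments were compared with glmQLFit and glmQLFTest in edgeR 4.0.16 (R 4.3.3), with no covariate, over 15472 genes. The tests were also run on simulated data in which genes varied independently, which cannot show the effect of variation shared within a library. Levels are CPM, and log2 CPM used a prior count of 2. Alternatives were other scalings and filters, DESeq2 1.42.0, limma 3.58.1 voom with and without quality weights, a robust fit, a replicate block, an adjusted p of 0.1, omission of single libraries and, for log2 CPM and ratios, a prior count of 0.5. The reported test had no block, since nothing in the labels pairs the numbers.

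The members and gene lists were chosen with earlier results of these data known. Named are all 10 members, up to 4 genes per companion list past the threshold with the smallest p (the 2 smallest where none passed), and the 5 genes most like Arntl and Nr1d1. Some genes that this rule names are not reported here. Other genes named from these lists (Nfil3, the ROR and bHLH genes, Ciart, the casein kinases, Cyp4a14, Hsph1, Rbm3, Hspa1b, Hspa8, Dnajb1) fall outside that rule and were chosen after their values were seen. Exon lengths and overlaps came from GENCODE M21 on GRCm38 and promoter sequences from RefSeq GRCm38.p6. The submitters' processing notes name GRCm39 instead. Protein sequences were not used here. Figures were drawn with matplotlib 3.10.9. All per-library columns of the count table were matched to a library, leaving 0 unused.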

Additional observations from a re-analysis of the deposited data

Results flagged for a closer look

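In 8 of 56 groups of 4 libraries checked among the named genes, 1 library lay far from the other 3, by Dixon's 95% criterion for the gap to the nearest library over the range. Chance flags about 1 in 20 such groups. Clock was at 30.6 CPM in antiCD47 1, against 39.9 to 40.4 CPM in the other antiCD47 libraries, and Upp2 was at 192 CPM in that library against 135 to 138 CPM. Per3 was at 27.1 CPM in IgG 4, above 21.7 to 22.3 CPM in the other IgG libraries. Per2 was at 28.1 CPM in IgG 1, below 31.2 to 31.7 CPM. In IgG 2, Cirbp was at 8.78 CPM, below 10.3 to 10.6 CPM, while the acute phase genes Saa2 at 571 CPM (others 109 to 153), Serpina3n at 806 CPM (others 323 to 398) and Orm2 at 113 CPM (others 44.9 to 56.5) were above the other IgG libraries.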

How the results depend on the processing

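Arntl, Clock, Cry1 and Per3 kept their direction in all 18 alternatives and passed in 13, 12, 14 and 14 of them. The number of clock genes called was 3 higher and 1 lower in the analysis reported and 2 higher and 2 lower with scaling by library totals, where Nr1d1 passed and Clock did not. With 1 library left out it ran from 0 to 3 higher and from 0 to 1 lower. Scaling by library totals turned Per2 to -0.18 and Cry2 to -0.11 (log2). Over all genes, 1678 passed (842 higher and 836 lower), 3581 with library totals (428 and 3153), 1603 with upper quartile scaling (634 and 969), 3174 by DESeq2 (1683 and 1491), 4331 by limma voom with quality weights (2133 and 2198) and 3574 at an adjusted p of 0.1 (1850 and 1724). With 1 library left out the total ran from 2 to 3630, the higher genes from 2 to 1843 and the lower genes from 0 to 1787. With the replicate block 2425 genes passed (1214 higher and 1211 lower), and 3 clock genes were higher and 1 lower. Same-numbered libraries correlated at 0.032, 0.157, -0.023 and 0.035 in their deviations from the treatment means, and not every library correlated best with its own number, so the numbers were not taken as pairs. Under the block Wdr5 (adjusted p = 0.0562) was lost, and Fkbp5 (adjusted p = 0.0162) and Tsc22d3 (adjusted p = 0.0169) passed. The cause of these shifts was not tested. Ratios between clock genes kept their sign with a prior count of 0.5 and with library totals. Depth limits Npas2, with 2 to 10 counts per library.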
